A study of Mus musculus with 6 samples.

Results

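Peaks of methylated DNA at the promoters of protein-coding genes were described in mouse primary mesangial cells. A peak was counted as a promoter peak where its summit, the position with the most reads, lay within 500 bp either side of the start of a protein-coding transcript on chromosomes 1 to 19 (GENCODE vM1 annotation, mm9 genome). The annotation gave 49470 such transcripts of 21416 genes with 44025 starts at 43976 positions, and the windows around them covered 29.8 Mb, 1.21% of these chromosomes. Joining promoter peaks that shared 1 bp or more, across the 6 samples, gave 2784 promoter regions, out of 170444 regions in the whole series. They touched 2558 genes (11.9%), and 523 of the regions, at 524 genes (2.45%), held a peak in all 6 samples. The rule used positions only, not pileup or group.

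Mesangial cells hold the capillary loops of the kidney's filtering unit together and can contract. The series has 3 controls and 3 samples kept for 72 h with 10 ng/ml TGF-β1, all from cells between passages 3 and 6 in medium with 25.5 mM glucose and 20% serum. The mouse strain is not given in the sources used here, and the study calls the samples of a group biological replicates without saying whether they came from separate animals or cultures, so that p-values measure the spread between these samples. DNA was immunoprecipitated with an antibody against methylated cytosine and sequenced (MeDIP-seq), and the method measures methylation and not expression, so the labelled cell type could not be checked with marker genes.

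DNA methylation in mammals is placed mostly on cytosines that precede a guanine (CpG). Most of the genome is poor in CpG and methylated, whereas the CpG islands at many promoters are kept free of methylation, and a methylated promoter island is commonly silent. Promoters of germline genes and 1 parental copy of imprinted promoters are the classical islands that are methylated in somatic cells.

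The following 150-base stretches show what such regions look like. They were read from mm9, 5′ to 3′ on the strand of the gene, centred on the highest summit of the region, with each CpG in capitals. D1Pas1, Fkbp6 and Sycp3 are germline genes and Peg3 is an imprinted gene, all with a peak in 6 samples. Il10 had a peak in the 3 control samples only, and Fgfr2 and Pde9a in the 3 TGF-β1 samples only.
D1Pas1: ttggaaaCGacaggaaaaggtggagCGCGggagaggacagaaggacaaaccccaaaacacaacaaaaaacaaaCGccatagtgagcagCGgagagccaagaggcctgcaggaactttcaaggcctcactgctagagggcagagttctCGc
Fkbp6: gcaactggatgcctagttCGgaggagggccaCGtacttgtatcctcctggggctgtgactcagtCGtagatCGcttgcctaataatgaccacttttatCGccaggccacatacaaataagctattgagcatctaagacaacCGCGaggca
Sycp3: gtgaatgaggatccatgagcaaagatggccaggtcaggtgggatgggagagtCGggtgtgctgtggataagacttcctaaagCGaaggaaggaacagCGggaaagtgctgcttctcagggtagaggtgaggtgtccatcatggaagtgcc
Peg3: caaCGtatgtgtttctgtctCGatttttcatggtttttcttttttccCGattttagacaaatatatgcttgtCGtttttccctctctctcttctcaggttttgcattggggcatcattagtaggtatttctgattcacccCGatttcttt
Il10: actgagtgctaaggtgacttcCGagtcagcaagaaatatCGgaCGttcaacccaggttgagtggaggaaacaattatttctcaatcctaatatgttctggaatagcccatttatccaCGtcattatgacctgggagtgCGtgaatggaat
Fgfr2: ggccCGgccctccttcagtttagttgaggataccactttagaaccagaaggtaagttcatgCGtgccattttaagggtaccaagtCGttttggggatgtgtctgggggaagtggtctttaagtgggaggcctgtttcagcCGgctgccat
Pde9a: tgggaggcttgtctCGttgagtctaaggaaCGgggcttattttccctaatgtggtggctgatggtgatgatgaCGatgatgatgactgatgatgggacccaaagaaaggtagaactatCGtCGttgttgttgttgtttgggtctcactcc

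The stretches with a peak in all 6 samples held 6 CpGs at D1Pas1, 7 at Fkbp6, 3 at Sycp3 and 5 at Peg3. D1Pas1 lies at chr1:188791122-188791271 (+ strand, outside transcripts, from base -173 to -24 of the start), Fkbp6 at chr5:135826181-135826330 (- strand, outside transcripts, from -435 to -286), Sycp3 at chr10:87922089-87922238 (+ strand, inside an annotated intron, from -225 to -76) and Peg3 at chr7:6683390-6683539 (- strand, outside transcripts, from -407 to -258). Il10 lies at chr1:132915953-132916102 (+ strand, outside transcripts, from -469 to -320), Fgfr2 at chr7:137405163-137405312 (- strand, from 59 to 208 of an internal start) and Pde9a at chr17:31570272-31570421 (+ strand, intron, from 256 to 405 of an internal start). No stretch overlaps an annotated UTR.

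The samples differed in depth and in GC, and this touches each comparison that follows. Peak calling used 9407103 to 11494356 reads in the control samples and 12634300 to 13291419 in the TGF-β1 samples, so that every TGF-β1 sample was deeper, and numbers of peaks are subject to depth as well as to treatment, which cannot be told apart. A region without a peak in a sample fell short of the threshold there and may still have held reads. Among promoter peaks of more than 55% GC, control replicate 1 had 43, control replicates 2 and 3 had 292 and 461, and TGF-β1 replicates 1, 2 and 3 had 237, 372 and 146. Control replicate 1 therefore held the fewest GC-rich promoter peaks, and TGF-β1 replicate 3 the fewest of its group. Of the 355 promoter regions with a peak in 5 samples, 196 (55.2%) lacked it in control replicate 1, against 40.9% of the other regions on these chromosomes. Counts of promoter peaks, of shared and group-only regions, of limma calls and of germline genes are also given without control replicate 1. CpG shares, profiles around starts, gene lists other than germline and regions without overlap in pileup were counted with all 6 samples only.

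The number of promoter peaks did not separate the groups. The lists held 1065, 1477 and 1735 promoter peaks in control replicates 1, 2 and 3, and 1572, 1688 and 1482 in TGF-β1 replicates 1, 2 and 3. The means were 1426 ± 338 (SD, n = 3) and 1581 ± 103 (SD, n = 3), and the groups overlapped (exact two-sided permutation test, p = 0.6, where 3 samples against 3 cannot go below 0.1). Per 1000000 reads, the direction of the means turned, to 137 ± 29.5 in control and 123 ± 11.1 in TGF-β1 samples (exact two-sided permutation test, n = 3 a group, p = 0.5), and without control replicate 1 the difference in promoter peaks was -25.3. Promoter peaks were 1.33%, 1.67% and 1.77% of a control sample's peaks on chromosomes 1 to 19, and 1.58%, 1.72% and 1.43% of a TGF-β1 sample's (exact two-sided permutation test, n = 3 a group, p = 1). The numbers of genes with a promoter peak were 1030, 1418 and 1644 in control and 1507, 1598 and 1406 in TGF-β1 samples (exact two-sided permutation test, n = 3 a group, p = 0.7).

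**Figure D1:**
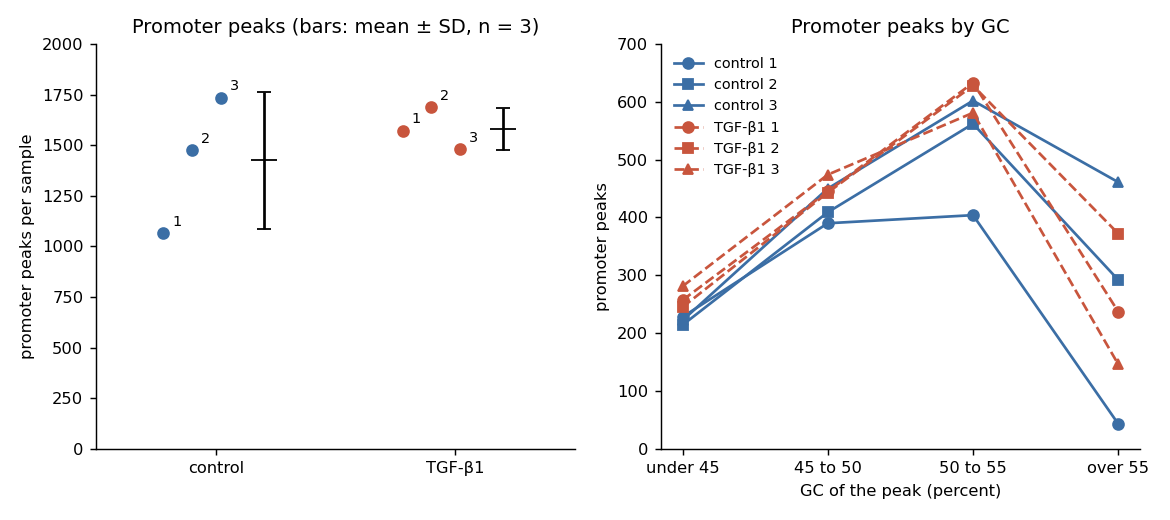
Left, promoter peaks in each sample (points, numbered by replicate) with the mean and SD of each group of 3; right, promoter peaks in each sample by the GC of the peak in percent, with control samples as solid lines and TGF-β1 samples as dashed lines. The samples lie closer together below 50% GC than above 55%, where they run from 43 in control replicate 1 to 461 in control replicate 3.

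The median fold enrichment of promoter peaks, the ratio of the pileup at the summit to the local background, was 6.38, 6.20 and 6.25 in control and 5.98, 6.08 and 6.17 in TGF-β1 samples. The groups did not overlap, and the means of 6.28 ± 0.0939 and 6.08 ± 0.0924 (SD, n = 3) differed by more than either SD (p = 0.1 by the exact two-sided permutation test, its lowest possible value, and 0.2 without control replicate 1, control replicate 3 or TGF-β1 replicate 1). The groups did not overlap either for peaks away from promoters, with medians of 6.27, 6.25 and 6.33 in control and 6.10, 6.13 and 6.15 in TGF-β1 samples (exact two-sided permutation test, n = 3 a group, p = 0.1). These medians were taken over each sample's own peaks. In the 523 shared promoter regions, medians were 7.04, 7.29 and 7.59 in control and 7.17, 7.21 and 7.51 in TGF-β1 samples. There the groups overlapped, with a difference in means of -0.00856 (TGF-β1 minus control). Promoter peaks below 45% GC numbered 228, 214 and 222 in control and 257, 245 and 281 in TGF-β1 samples, without overlap (exact two-sided permutation test, n = 3 a group, p = 0.1), and each TGF-β1 sample was also deeper. The median GC of promoter peaks, 48.9%, 51.0% and 51.7% in control and 50.6%, 51.2% and 49.9% in TGF-β1 samples, did not separate the groups (exact two-sided permutation test, n = 3 a group, p = 1). The summit lay downstream of the start in 59.1%, 62.2% and 61.3% of promoter peaks in control and 61.3%, 62.4% and 61.1% in TGF-β1 samples (exact two-sided permutation test, n = 3 a group, p = 0.6).

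Whether a start carried a peak followed its CpG density. With CpGs counted in the 1000 bp around each start, a peak in at least 1 sample was found at 1.55% of starts with fewer than 1 CpG per 100 bp, at 16.3% of those with 1 to 2, at 28.5% of those with 2 to 3, at 15.5% of those with 3 to 4, at 3.77% of those with 4 to 6, at 1.79% of those with 6 to 8 and at 0.627% of those above 8. Peaks in all 6 samples had their maximum in the same bin, at 6.37% of the 3690 starts with 2 to 3 CpGs per 100 bp, and stood at 0.0369% of the 8140 starts above 8. Starts of intermediate CpG density thus carried peaks most often, and the densest starts least often. The pull-down itself also depends on the number of CpGs in a fragment, and its part in these shares was not tested.

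Sorted into 3 classes by the best 500 bp window near the start, 299 of 19780 high-CpG starts (1.51%) carried a peak in at least 1 sample, 1496 of 8223 intermediate starts (18.2%) and 1526 of 16022 low-CpG starts (9.52%). Peaks in all 6 samples stood at 39, 369 and 215 of these starts (0.197%, 4.49% and 1.34%). High-CpG starts had observed over expected CpG above 0.75 with GC above 55%, low-CpG starts no window above 0.48, and the rest were intermediate. The order of the last 2 classes depended on the window: with the classes set over the whole 1000 bp, low-CpG starts led with 12.7% (462 starts in all 6 samples), before intermediate starts with 5.12% (142) and high-CpG starts with 0.990% (19). High-CpG starts were lowest under both definitions, and the high-CpG share per sample was 0.450%, 0.753% and 0.991% in control and 0.789%, 0.829% and 0.723% in TGF-β1 samples.

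Around the outermost start of each gene the classes had different profiles. At high-CpG starts, summits within 500 bp of the start numbered 0.779 ± 0.218 per kb per 1000 starts per 1000000 reads in control and 0.677 ± 0.0592 in TGF-β1 samples (SD, n = 3), against 4.93 ± 0.521 and 4.48 ± 0.0509 at 500 to 2000 bp. At intermediate starts the order was the other way, with 10.0 ± 2.38 and 9.08 ± 1.22 within 500 bp and 5.72 ± 0.608 and 4.99 ± 0.0221 farther out. At low-CpG starts the density was 3.05 ± 0.622 and 2.73 ± 0.226 within 500 bp, close to the 3.27 ± 0.441 and 3.04 ± 0.0911 farther out. Within 500 bp, control and TGF-β1 samples overlapped in each class (exact two-sided permutation tests, n = 3 a group, p = 0.5 at high, 0.6 at intermediate and 0.5 at low CpG). At 500 to 2000 bp the exact two-sided permutation tests (n = 3 a group) gave p = 0.4 at high, 0.1 at intermediate and 0.4 at low CpG, with no overlap of the groups at intermediate starts.

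**Figure D2:**
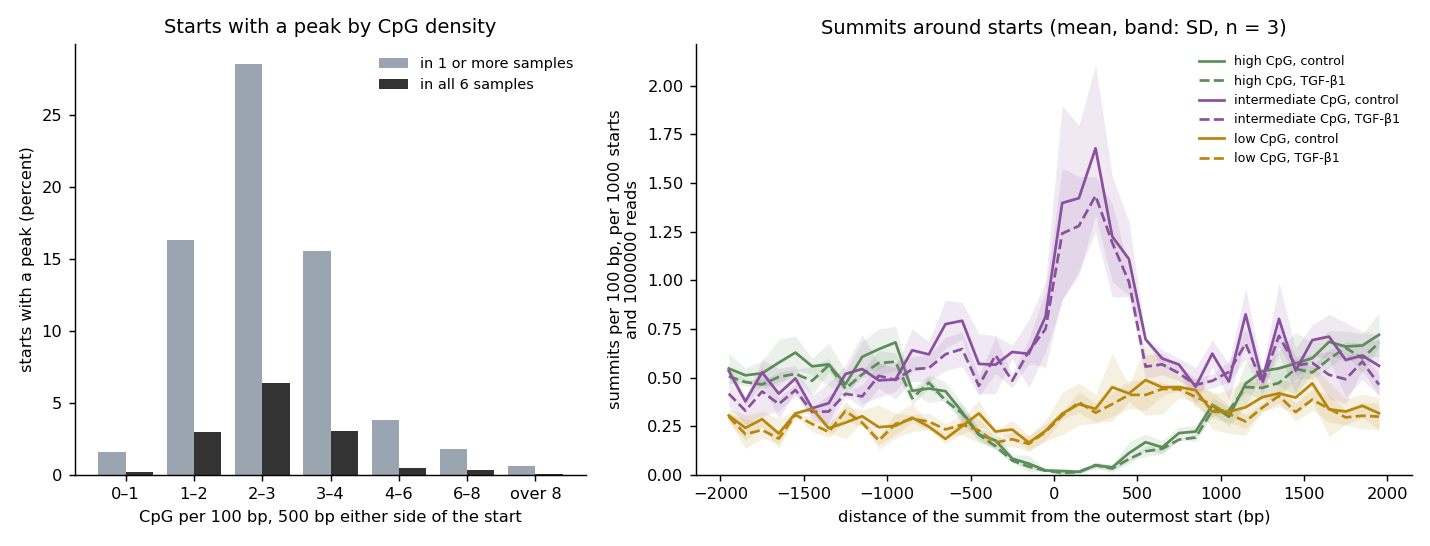
Left, percent of transcript starts with a promoter peak in at least 1 sample (grey bars) and in all 6 samples (black bars) by the CpGs per 100 bp around the start; right, summits per 100 bp, 1000 starts and 1000000 reads by distance from the outermost start of each gene in bp, as the mean of 3 samples (lines) with the SD (bands), for 3 CpG classes in control (solid) and TGF-β1 samples (dashed). The share with a peak is highest, at 28.5%, for 2 to 3 CpGs per 100 bp, and high-CpG starts show a gap where intermediate starts show a maximum.

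The sharing of promoter regions between samples was set beside that of other regions. A peak in all 6 samples was found in 523 promoter regions (18.8%), against 24.4% of the other regions on chromosomes 1 to 19 and 24.3% of all regions there, and a peak in 1 sample in 769 (27.6%) against 27.4%. The rule counts a peak in a promoter region only where its summit lies in the window, a limit that other regions do not have. Where any overlapping peak was counted, 673 promoter regions (24.2%) had a peak in all 6 samples, close to the share of the other regions. Without control replicate 1, 719 promoter regions had a peak in the other 5 samples. The 523 regions had a median length of 506 bp, a median GC of 49.4% and 2.77 CpGs per 100 bp, and their mean pileup per 1000000 reads had a median of 2.21 and a range from 1.04 to 25.6. Of them, 262 (50.1%) lay at the outermost start of a gene, and the others at internal starts only. A region can touch several starts, so this share cannot be set beside the 48.6% of starts that are outermost. Counted by start, 261 of 21416 outermost and 362 of 22609 other starts had a peak in all 6 samples. In at least 1 sample the shares were 6.59% and 8.44%, so outermost starts carried peaks less often. For peaks in all 6 samples, low-CpG starts differed (66 of 7634 outermost, 149 of 8388 other), while the shares were close in the other classes. The summits of the 523 regions lay in coding exons (209 regions), introns (184), outside transcripts (81) and in UTRs (49). Mostly unique sequence, in which most 31-base words occur once in mm9, made up 463 of them (88.5%).

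**Figure D3:**
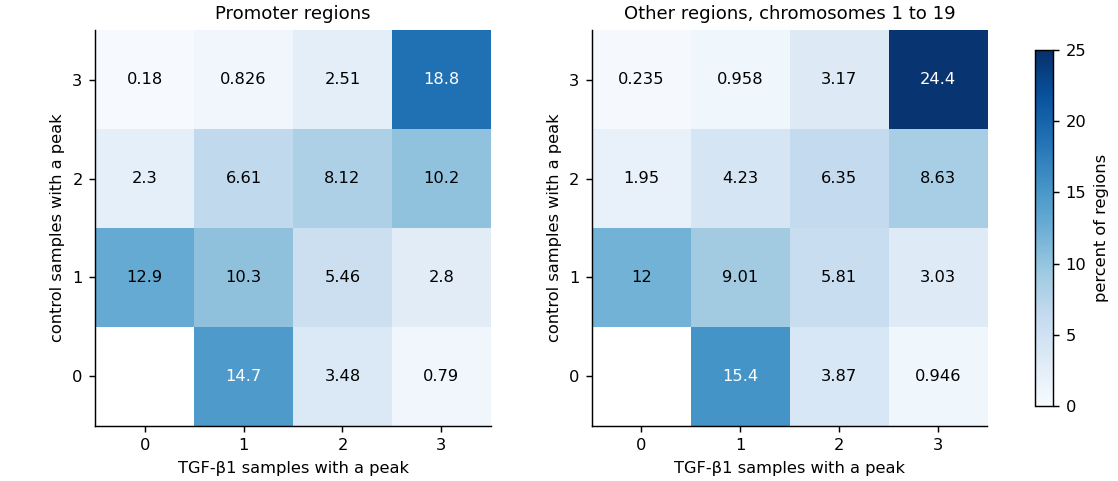
Percent of promoter regions (left) and of other regions on chromosomes 1 to 19 (right) by the number of control samples (vertical) and TGF-β1 samples (horizontal) with a peak. Both grids are highest where all 6 samples had a peak, with 18.8% of promoter regions, counted by summits in the window, and 24.4% of the others, and lowest where 3 control samples and 0 TGF-β1 samples had it.

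The promoter regions of highest pileup were mostly at predicted genes or in repeated sequence. The first was Gm10800 (chr2:98506368-98507534), a predicted gene, with pileups of 301, 273 and 315 reads in control replicates 1 to 3 and 282, 291 and 305 in TGF-β1 replicates 1 to 3. The second was Gm17535 (chr9:3034576-3035444), with 277, 262 and 274 in control and 270, 264 and 273 in TGF-β1 samples, where the median 31-base word has 35 copies in the genome. At both, the pileup changed little between samples although their reads ran from 9407103 to 13291419.

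Sfi1 (chr11:3092758-3093955, 221 bp upstream of the start), which encodes a centrosomal protein, followed with 189, 185 and 223 in control and 206, 194 and 221 in TGF-β1 samples. Its 31-base words occur once in mm9, and copies missing from that reference could not be counted. Gm7120 (183 reads on average in TGF-β1 samples, 167 in control) and Gm10801 (157 and 162) came next. Gm10925 and Gm10222, neighbours on chromosome 1, had 107 and 101 reads on average in control and 135 and 132 in TGF-β1 samples. Of their 31-base words, 100% and 97.9% also occur in the mitochondrial genome, so that reads of mitochondrial DNA and of these regions cannot be told apart.

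The remaining 3 of the first 10 were Cbara1 (66.7 reads on average in control, 73.3 in TGF-β1 samples), which encodes a regulator of mitochondrial calcium uptake, Smarca2 (60.0 and 67.7), an ATPase of the SWI/SNF chromatin remodelling complex, and Gm17621 (60, 46 and 59 reads in control, 69, 64 and 75 in TGF-β1 samples), whose median 31-base word has 4037 copies. The summits of Cbara1 and Smarca2 lay in coding exons, 2 and 7 bp upstream of an internal start.

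No promoter region was called as different in pileup between control and TGF-β1 samples. The highest pileup of each region in each sample was taken on a log2 scale, centred on the sample's median, and tested with limma over all 41592 regions with a peak in 6 samples. With thresholds of 0.01 on the adjusted p and of 2 on the size of the log2 fold change, 0 of 523 promoter regions were called, against 0% of all regions, and 0 at an adjusted p below 0.05 with any fold change. The smallest adjusted p (limma with Benjamini-Hochberg adjustment) of a promoter region was 0.999. At an unadjusted p below 0.05 there were 30 promoter regions (5.74%), against 4.26% of all regions: 11 higher in TGF-β1 samples (1.61% of all regions) and 19 lower (2.66% of all regions). The absolute log2 fold change did not exceed 0.69, and the middle 50% of promoter regions lay between -0.16 and 0.12, with a median of -0.02 for promoter regions and for all regions. Scaled by reads without centring, 38 promoter regions passed (7.27%), 3 higher and 35 lower, and of all regions 2587 (6.22%), 211 higher and 2376 lower. Without control replicate 1, 40 promoter regions passed (7.65%), 13 higher and 27 lower, against 6.02% of all regions. The pileups of the 3 control and 3 TGF-β1 samples did not overlap in 23 promoter regions in the higher direction (4.40%, against 3.80% of all regions) and in 32 in the lower (6.12%, against 5.64%), shares near those of all regions. The median SD of log2 pileup within a group was 0.24 in control and 0.20 in TGF-β1 samples. Regions that no longer pass the peak threshold in a sample were outside this test. The lowest pileup called was 8 to 10 reads, and the mean control pileup of these promoter regions had a median of 24. A fall past the log2 threshold of 2 from such a pileup would end below the lowest pileup called. The 0 calls therefore cannot decide on falls of that size.

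Among the regions with the smallest unadjusted p, L3mbtl3 (chr10:26034053-26034560, intron, 343 bp upstream of an internal start), a reader of methylated lysine, had 46, 40 and 64 reads in control and 40, 40 and 34 in TGF-β1 samples. The groups met at 40 reads, and the log2 fold change after centring was -0.61 ± 0.18 (SE, unadjusted p = 0.00188, limma). Gm10800, named above, had -0.25 ± 0.08 (SE), while its raw pileups overlapped, and measured by fold enrichment the value was -0.00274.

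In the other direction, Gm6984 (chr14:74354749-74355178, coding exon, 461 bp downstream), a predicted gene in sequence with a median of 4 copies, had 17, 15 and 16 reads in control and 31, 22 and 37 in TGF-β1 samples, with a log2 fold change of 0.64 ± 0.22 (SE). Calr4 (chr4:108908145-108908716, intron, 292 bp downstream of an internal start), a calreticulin family gene, had 14, 13 and 13 in control and 22, 23 and 26 in TGF-β1 samples (0.59 ± 0.21, SE). Apold1 (chr6:134931763-134932366, outside transcripts, 90 bp upstream), an apolipoprotein L domain gene of endothelium, had 13, 21 and 19 in control and 33, 24 and 34 in TGF-β1 samples (0.55 ± 0.22, SE). The groups did not overlap at these 3 genes, and the adjusted p of each of these 5 regions was 0.999 (limma with Benjamini-Hochberg adjustment).

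**Figure D4:**
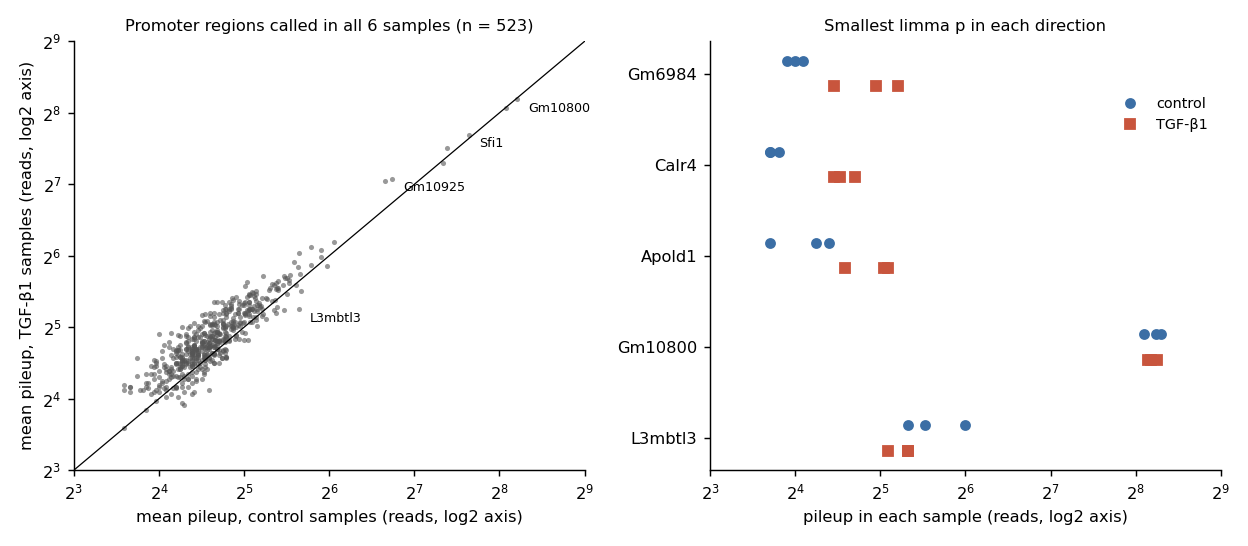
Left, mean pileup in reads of the 3 TGF-β1 samples against that of the 3 control samples, on log2 axes, for the 523 promoter regions with a peak in all 6 samples, with the line of equal values; right, the pileup in each sample for the 5 regions named for a small limma p. Most points lie slightly above the line in these raw pileups, which are not scaled for depth, and the samples of Gm10800 lie together while those of Calr4 are apart.

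Calls in only 1 group were few. A peak in 3 TGF-β1 and 0 control samples was found in 22 promoter regions (0.790%), against 0.944% of all regions on these chromosomes, and in 20 of them no peak of a control sample overlapped the region at all. A peak in 3 control and 0 TGF-β1 samples was found in 5 (0.180%), against 0.234%, and in 4 of them no TGF-β1 peak overlapped. Both shares were near the background, and both counts depended on every library: with 1 library left out, the regions called in all samples of 1 group and none of the other numbered 41 to 62 for TGF-β1 (43 without control replicate 1) and 10 to 43 for control (43 without control replicate 1). Their pileups were low, with a median of 18 in both directions and a highest value of 35. Shd had pileups of 35, 21 and 34 in the TGF-β1 samples, but peaks of all 3 control samples overlapped the region with summits outside the window, and at Amn, with 26, 19 and 28 in control, a TGF-β1 peak did so.

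Of the TGF-β1-only regions without an overlapping control peak, Fgfr2 (chr7:137405018-137405410, intron, 133 bp downstream of an internal start), a fibroblast growth factor receptor, had 25, 27 and 25 reads in TGF-β1 replicates 1 to 3. Other peaks in the same 1000 bp window were called in 2 control samples, so that the start itself was not free of control peaks. Pde9a (chr17:31570186-31570524, intron, 331 bp downstream of an internal start), a cGMP phosphodiesterase, had 28, 20 and 27. The windows of this and of the next 3 starts held no control peak.

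Fat2 (chr11:55125192-55125568, coding exon), an atypical cadherin, had 21, 25 and 25 reads, Bcas3 (chr11:85322854-85323226, coding exon) 20, 19 and 27, and Itpr2 (chr6:146345233-146345664, coding exon), an inositol trisphosphate receptor, 17, 23 and 22. All 5 of these regions lay at internal starts, and 9 of the 22 at an outermost start.

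Of the control-only regions, Il10 (chr1:132915797-132916127, outside transcripts, 394 bp upstream of the outermost start), an anti-inflammatory cytokine, had 20, 15 and 22 reads in control replicates 1 to 3. Isx, an intestinal homeobox gene, had 20, 14 and 16. Epb4.1l4b (chr4:57039983-57040335, intron, 383 bp downstream of an internal start) had 17, 14 and 18, and Gm6327 (chr16:12761685-12762161, 418 bp upstream), a predicted gene, 18, 13 and 14. The lowest pileups called anywhere were 8 reads in each control sample and 9, 9 and 10 in the TGF-β1 samples.

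Germline genes were set beside all genes by their counts, without a test. Of 68 germline genes of the list in the annotation, 34 (50%) had a promoter peak in at least 1 sample, against 11.9% of all genes, and 7 (10.3%) in all 6, against 2.45%. D1Pas1, a testis DEAD-box RNA helicase gene, had 32, 55 and 64 reads in control and 50, 57 and 54 in TGF-β1 samples at chr1:188790843-188791445. Fkbp6, needed for meiosis, had 36, 29 and 35 in control and 47, 41 and 44 in TGF-β1 samples at chr5:135826043-135826537. At D1Pas1 control replicate 1 was the lowest of the 6, and at Fkbp6 the raw pileups did not overlap, with a log2 fold change after centring of 0.17 ± 0.18 (SE).

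Sycp3, a component of the axial element of meiotic chromosomes, had 23, 24 and 44 reads in control and 40, 35 and 23 in TGF-β1 samples. Stra8, which acts at the entry into meiosis, had 20, 27 and 34 in control and 30, 38 and 32 in TGF-β1 samples. The Stra8 summit lay in an intron, 84 bp downstream of an internal start. The groups overlapped at both genes. The other 3 with a peak in all 6 samples were Dppa3, Dppa5a and Tex14, which were named after their values had been seen, and Tex14 shares its region with the start of Rad51c. Of the 34, 8 (23.5%) had peaks in more TGF-β1 than control samples and 10 (29.4%) in more control than TGF-β1 samples, against 36.5% and 24.5% of the 2558 genes with a promoter peak. Counted by gene rather than by region, no germline gene had peaks in all 3 samples of 1 group and 0 of the other. Among the 2558 genes with a promoter peak, the same held for all but 20 (TGF-β1) and 5 (control). With so few over all genes, 0 among 34 does not set germline genes apart. Without control replicate 1, 9 germline genes (13.2%) and 3.34% of all genes had a peak in all 5 samples. Over the other omissions of 1 library the number was 7 to 9, and at a fold enrichment of at least 5 it was 5. The letters CACGTG (the same on both strands) stood between 250 bases before and 50 after 44.9% of the 49 germline starts with a peak, 26.1% of all 134 germline starts, 10.8% of high-CpG starts and 7.67% of all starts. TCCCGC, on either strand, stood at 36.7%, 22.4%, 44.7% and 25.8% of the same sets. Both are descriptions of letters.

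Of 51 imprinted genes, 2 (3.92%) carried a peak in all 6 libraries and 13 (25.5%) in at least 1, against 2.45% and 11.9% of all genes. Peg3 (chr7:6683220-6684056, 333 bp upstream of the outermost start), a paternally expressed zinc finger gene, had 21, 24 and 27 reads in control and 23, 28 and 31 in TGF-β1 samples. Grb10 (chr11:11927842-11928269, intron, 85 bp upstream of an internal start), an adaptor of growth factor receptors, had 33, 27 and 25 in control and 29, 30 and 25 in TGF-β1 samples. The groups overlapped at both.

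Genes of the TGF-β pathway were followed from ligand to target. Of 29 genes of TGF-β signalling (ligands, receptors, Smads and their regulators), 0 showed a promoter peak in all 6 samples and 2 (6.90%) in at least 1. Among all genes the shares were 2.45% and 11.9%. Of these 29 genes, 79.3% have a high-CpG outermost start, against 46.1% of all genes. Tgfbr3, the type III receptor, had peaks of 13 and 12 reads in control replicates 1 and 2 and of 22, 23 and 26 in the TGF-β1 samples, and Smad3, a signal transducer, 17 in TGF-β1 replicate 3. Both lay at internal starts of low CpG density, and they were named after their values had been seen.

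Of 37 TGF-β target and matrix genes, 1 (2.70%) carried a peak in all 6 libraries and 2 (5.41%) in at least 1, against 2.45% and 11.9% of all genes. Fbn1 (chr2:125333080-125333770, UTR, 198 bp downstream of the outermost start), which encodes the microfibril protein fibrillin-1, had 14, 20 and 20 reads in control and 21, 23 and 27 in TGF-β1 samples, without overlap. Its log2 fold change after centring was 0.17 ± 0.22 (SE), within its error.

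The 2 genes that the study takes up, Gja4 (a gap junction protein) and Klf7 (a Krüppel-like transcription factor), had no promoter peak in any of the 6 samples at any of their annotated starts, 1 start of intermediate CpG density at Gja4 and 5 starts of intermediate or high density at Klf7. The study places the changed methylation of both genes in exon 2, whereas only peaks within 500 bp of a start were counted here. Of 29 genes in the study's list of higher methylation, Klf7 included, 0 showed a promoter peak in all 6 samples and 2 (6.90%) in at least 1, and of 63 in its list of lower methylation, Gja4 included, 1 (1.59%) and 8 (12.7%). Among all genes the shares were 2.45% and 11.9%. The study chose these lists on these samples. The 1 gene is Mllt4 (chr17:14025657-14026102, coding exon, 364 bp downstream of an internal start), the gene of the junction protein afadin, with 22, 24 and 43 reads in control and 27, 32 and 27 in TGF-β1 samples, where the groups overlapped.

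Of 23 genes that write, remove or read DNA methylation, 1 (4.35%) showed a promoter peak in all 6 samples and 6 (26.1%) in at least 1, against 2.45% and 11.9% of all genes. Tet1 (chr10:62342308-62342804, coding exon, 187 bp downstream of an internal start), an enzyme that oxidises methylated cytosine, had 13, 21 and 37 reads in control and 27, 29 and 17 in TGF-β1 samples. The spread within each group was wide, from 13 to 37 in control.

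Markers of kidney cell types were described as promoters only. Of 26 mesangial and pericyte markers, 0 carried a peak in all 6 libraries and 2 (7.69%) in at least 1, and of 15 tubule markers 0 and 0. Among all genes the shares were 2.45% and 11.9%. Of 15 annotated genes with the symbol of a podocyte marker, 3 were marked in all 6 samples and 0 in 1 to 5. They were Plce1, a phospholipase of the podocyte (32, 22 and 24 reads in control, 22, 28 and 34 in TGF-β1 samples), Synpo, an actin-binding protein of foot processes (25, 28 and 22 in control, 27, 21 and 31 in TGF-β1 samples, at an internal start), and Tcf21, a transcription factor of podocytes and stroma (18, 19 and 18 in control, 18, 14 and 22 in TGF-β1 samples). The groups overlapped at all 3.

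Of 12 endothelial markers, 0 carried a peak in all 6 libraries and 4 (33.3%) in at least 1, and of 15 leukocyte markers 1 (6.67%) and 7 (46.7%), against 2.45% and 11.9% of all genes. The leukocyte gene is Sfpi1, which encodes the transcription factor PU.1, with 23, 16 and 27 reads in control and 29, 25 and 22 in TGF-β1 samples at an internal start. Of 26 housekeeping genes, of which 84.6% have a high-CpG outermost start, 0 carried a peak in all 6 libraries and 2 (7.69%) in at least 1. Among all genes, 46.1% have a high-CpG outermost start, 33.8% among germline genes and 0% among the leukocyte markers, so the lists differ in CpG density as well.

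**Figure D5:**
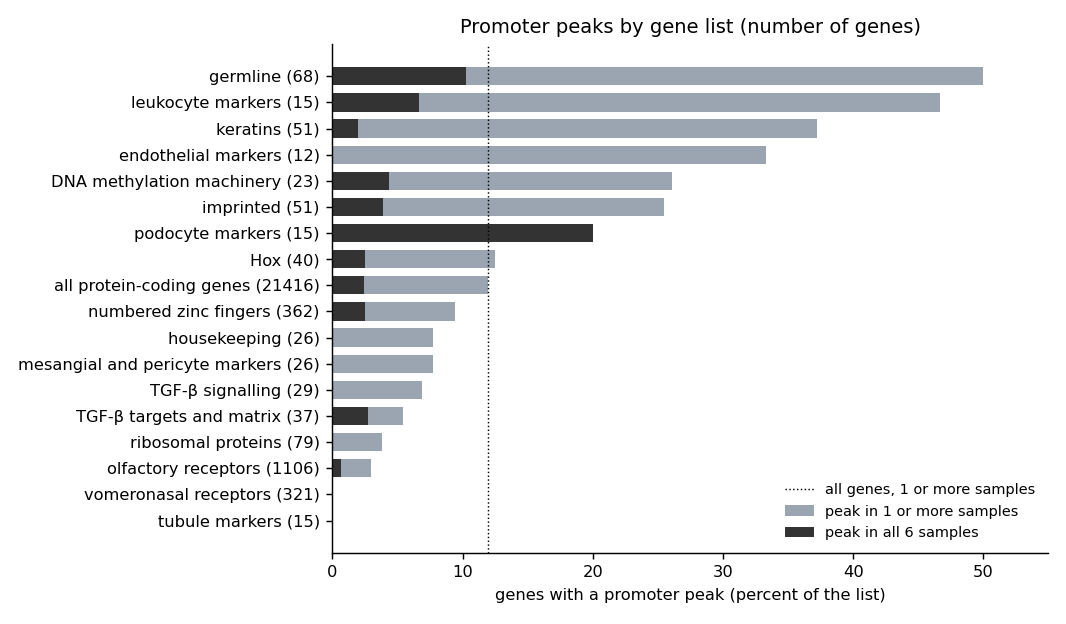
Percent of the genes of each list (number of genes in parentheses) with a promoter peak in at least 1 sample (grey) and in all 6 samples (black); the dotted line is the share of all protein-coding genes with a peak in at least 1 sample, 11.9%. Germline genes reach 50%, while no tubule marker and no vomeronasal receptor has a promoter peak.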

How the data were processed

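DNA pulled down from 3 control and 3 TGF-β1 samples of mouse mesangial cells was sequenced. The authors aligned reads with BWA to mm9, kept uniquely mapped reads, counted duplicates once, and called peaks in each sample without an input control with MACS 2.1.0.20150731 (q of 0.01, regional background of 10000 bp). The lists used here keep replicates apart, although the study also merged the replicates of each group. The deposited peak lists give the pileup at the summit, a signal of extended reads not scaled for depth, the fold enrichment, a ratio over the local background of the same sample, and −log10 p and q values, also as deposited. Groups came from the sample labels. Depth was 9407103 to 13291419 reads a sample, and the lowest pileup called was 8 to 10 reads. Intervals and floors were not computed, since the lists hold only called peaks.

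Promoter peaks were found and joined as stated in the report. Peaks on chromosomes X, Y, M or unplaced sequence (12312) were outside the rule, and 3011 peaks on sequence outside the reference used here had no GC or CpG value. The annotation marks 2766 transcripts as having no start found, which were kept. Copies of 31-base words were counted over mm9. Per-sample measures were compared with exact two-sided permutation tests. The highest pileup of regions called in all 6 samples was tested with limma (trend) over 41592 regions, with Benjamini-Hochberg adjustment. On simulated data for this comparison, 200 of 200 regions changed by a log2 value of 3 were recovered and 0 unchanged ones called. The largest absolute log2 fold change of a promoter region in the samples was 0.69, and recovery at that size was not tested. A fall of 3 from the median control pileup would end below the lowest pileup called. Tools were R 4.3.3, limma 3.58.1, Python 3.11.15, pandas 2.3.3, numpy 2.4.6, scipy 1.17.1, pysam 0.24.0 and matplotlib 3.10.9.

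Named genes were, in each list, up to 4 of highest pileup per 1000000 reads among regions called in all 6 samples, the 3 regions of smallest limma p in each direction (1 is not reported here), up to 5 group-only regions in each direction without an overlapping peak of the other group, the 10 of highest pileup, Gja4 and Klf7, and markers with a region in all 6 samples. Others are named as chosen after their values were seen. The members and lists were chosen with earlier results of these data known. Alternatives were the promoter window, peak threshold, joining, scaling, filter, GC correction, replicate block and each sample left out. Alternative classes, germline settings, shared regions without each sample and transcripts without a found start were added after seeing the data. Replicate numbers did not pair the samples: deviations of same-numbered samples correlated at -0.0489, 0.0831 and -0.163 over 523 promoter regions.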

Additional observations from a re-analysis of the deposited data

How the results depend on the processing

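Of 154 alternatives for the comparisons, 119 kept the direction and the side of the threshold (for counts, within 1.5 times), 22 moved a count and 13 turned a direction. The 95 alternatives for the named regions kept direction and side of the threshold but not always size. No difference between groups that turned had passed a test. The difference (TGF-β1 minus control) in promoter peaks was -14.2 per 1000000 reads and, with 1 sample left out, ran from -25.3 (without control replicate 1) to 309.7. Likewise it ran from -27.3 to 279.7 for genes and from -0.128 to 1.42 percentage points for the downstream share, lowest without control replicate 1. The difference in the share of peaks at promoters became 0.0147 within 1000 bp of a start and ran from -0.14 to 0.0768 with 1 sample left out, with 0.0288 without control replicate 2, 0.0768 without control replicate 3 and 0.0607 without TGF-β1 replicate 3. The difference in median GC became -0.0137 within 250 bp, -0.0484 within 1000 bp, -0.793 without control replicate 1 and -0.322 without TGF-β1 replicate 2 (highest 0.618 with 1 sample left out), and that in median pileup -0.102 per 1000000 reads. Regions in all 6 samples numbered 241 within 250 bp and 1108 within 1000 bp. TGF-β1-only regions numbered 14 and 53 at these windows and 41 to 62 with 1 sample left out, and control-only regions 3 and 14, and 10 to 43. With CpG classes from the whole window, 19 high, 142 intermediate and 462 low starts had a peak in all 6 samples. Among regions called in at least 3 samples, 57 of 1568 promoter regions (3.64%), 42 higher and 15 lower, had an unadjusted limma p below 0.05, against 4.04% of all 98661 regions. With the replicate number as a block, the limma counts were 0 at the thresholds and 25 at an unadjusted p below 0.05, and the difference in promoter peaks was 155 (exact sign-flip test of 3 pairs, p = 0.75, where the smallest is 0.25). The block changed no other call. Depth limits which regions are called, and treatment cannot be told apart from it.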

Other observations

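Large gene families differed in how many members held a promoter peak. Of 1106 olfactory receptor genes, 33 (2.98%) had one in at least 1 sample and 7 in all 6, against 11.9% and 2.45% of all genes, and of 321 vomeronasal and 38 taste receptor genes 0 had one. Olfr282, the one of highest pileup, had 28, 34 and 45 reads in control and 30, 41 and 48 in TGF-β1 samples, and the groups overlapped. Of 51 keratin genes, 19 (37.3%) had a peak in at least 1 sample, but 1 (1.96%) in all 6: Krt28, with 19, 21 and 24 reads in control and 22, 22 and 32 in TGF-β1 samples. Control replicate 1, the sample with the fewest GC-rich promoter peaks, had no other keratin promoter peak. Krt10 lacked a peak in that sample only. Of 362 numbered zinc finger genes, 34 (9.39%) had a peak in at least 1 sample and 9 in all 6, with Zfp61 at 32, 45 and 50 reads in control and 58, 39 and 54 in TGF-β1 samples.

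Of 40 Hox genes, 5 (12.5%) had a promoter peak in at least 1 sample and 1 (2.5%) in all 6, near the 11.9% and 2.45% of all genes. The 1 was Hoxc4, with 22, 31 and 35 reads in control and 40, 30 and 32 in TGF-β1 samples. Of 60 serpin genes, 7 (11.7%) and 1 (1.67%) had one, also near the shares of all genes. The 1 was Serpina3a, with 25, 22 and 30 in control and 47, 37 and 39 in TGF-β1 samples, which did not overlap (log2 fold change 0.44 ± 0.19 SE, limma adjusted p = 0.999). Of 98 cytochrome P450 genes, 5 (5.10%) and 1 (1.02%) had one. The 1 was Cyp2r1, a vitamin D 25-hydroxylase, with 20, 13 and 19 in control and 21, 20 and 17 in TGF-β1 samples. Ribosomal protein genes (79), histone genes (66), defensins (53), keratin-associated proteins (46) and kallikreins (28) had 0 in all 6 samples. In at least 1 sample they had 3 (3.80%), 2 (3.03%), 3 (5.66%), 1 (2.17%) and 1 (3.57%), against 11.9% of all genes.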
